A study of Mus musculus with 4 samples.

Results

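The cytosolic ribosomal protein genes are described here in the dentate gyrus (DG) of mice after electroconvulsive stimulation (ECS). A probe set was taken as a member when the array annotation gave it a single gene symbol and that symbol was a cytosolic ribosomal protein of the large subunit (Rpl followed by a number, or Rplp0 to Rplp2) or of the small subunit (Rps followed by a number, or Rpsa), without the Rps6k kinases. This gave 100 of the 22626 probe sets, 46 of the large and 54 of the small subunit. They stand for 48 of 12393 genes, 26 of the large and 22 of the small subunit. A further 102 ribosomal protein probe sets carried several symbols, mostly with pseudogenes, and were not members.

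RNA from the DG of C57Bl/6 mice was hybridised to 4 Affymetrix arrays, 1 per group, with RNA of 3 mice pooled on each. The groups were sham-treated mice taken at 1 h, mice with a single ECS taken at 1 h, mice with 10 ECS taken 48 h after the last, and mice with 11 ECS taken 1 h after the last. The stimulus was a bilateral current of 25 mA lasting 1 s, with pulses of 0.5 ms at 100 per s, given through ear clips under 1.5 to 2% isoflurane. Repeated ECS was given 4 times a week over up to 3 weeks, and by the study's account the mice with 10 ECS had a sham session 1 h before dissection. Sham mice had the same handling without current. The study used males bought at 8 weeks of age, of the substrains C57BL/6J or C57BL/6N, and the labels give neither age, sex nor substrain for these pools. The free-text descriptions of 3 of these 4 samples (all but sham) give a treatment that differs from the title. The titles were followed, since the source and treatment labels give the same groups. With 1 array per group there is no spread between replicates, no test and no p-value, and a difference between arrays is a difference between 2 pools of mice. In bulk tissue, fewer cells of a type and less RNA per cell cannot be told apart.

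A ribosome is made of a small subunit, which holds the mRNA and reads its codons, and a large subunit, which joins the amino acids. Each subunit carries ribosomal RNA and a set of ribosomal proteins that are made in nearly equal numbers and assembled in the nucleolus. The mRNAs of these proteins are among the most abundant of a cell, and most begin with a short run of pyrimidines, the terminal oligopyrimidine tract, through which the mTOR pathway sets how strongly they are translated. An array measures the amount of such an mRNA and not its translation.

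To show this start region, windows of 30 bases around the annotated transcription start (15 before and 15 from the start on) were read from the RefSeq promoter table of GRCm38.p6 for 42 of the 48 genes, which have 50 windows. They are printed 5′ to 3′ on the strand of the gene for genes that the results below turn on, with 3 forms of a pyrimidine tract in capitals: CTTTTC or CTTTCC or CTTCC.
Rpl22l1 (chr3:28805493-28805522, plus strand): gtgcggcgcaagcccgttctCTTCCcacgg
Rpl22 (chr4:152325711-152325740, plus strand): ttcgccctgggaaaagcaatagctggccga
Rpl38 (chr11:114668565-114668594, plus strand): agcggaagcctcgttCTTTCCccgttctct
Rplp2 (chr7:141447636-141447665, plus strand): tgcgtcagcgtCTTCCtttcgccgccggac
Rps10 (chr17:27635230-27635259, minus strand): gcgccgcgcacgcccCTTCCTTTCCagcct
Rpsa (chr9:120127751-120127780, plus strand): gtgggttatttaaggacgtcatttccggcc
Rps27l (chr9:66946071-66946100, plus strand): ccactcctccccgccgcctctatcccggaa
In these windows Rpl38 and Rps10 have the tract exactly at the annotated start. The paralog Rpl22l1 holds one of the words and this window of Rpl22 holds none.

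At least 1 of the 3 words was found on the gene's strand in 28% of the 50 windows and in 8.85% of all 32851 windows of that length in the table. CTTTCC alone was in 12% of member windows against 1.42% of all, CTTTTC in 6% against 1.06%, and CTTCC in 12% against 6.63%. In the full 300 bases (250 before the start and 50 after it) searched on both strands, CCGGAAG was in 42% of member windows against 8.86% of all. GGGCGG was in 52% against 35.7%, AAGATGGC in 8% against 2.75%, and TATAAA, the core of a TATA box, in 12% against 13.6%. CTTCC is the reverse complement of the end of CCGGAAG, so these matches can overlap. A match describes letters in a window and shows neither a bound factor nor a control of the gene.

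The arrays differed in their general level, with a median signal between 56.3 units (single ECS) and 69.3 units (sham). The median log2 ratio of all probe sets was −0.23 for single ECS over sham, −0.11 for 11 ECS over 10 ECS, −0.13 for 10 ECS over sham and −0.01 for 11 ECS over single ECS. For the 1484 probe sets outside the family with a mean of at least 1000 units it was −0.12, −0.05, −0.09 and −0.03 in the same order. Each log2 ratio of a member is therefore also given relative to probe sets of similar brightness, that is, minus the median of the 200 probe sets outside the family that were nearest in mean log2 signal. A floor of 12 units was used, which is the 25th percentile over the table, and lower signals were raised to it.

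Most members were bright. The mean signal over the 4 arrays had a median of 2104 units over the 100 probe sets and reached 9182 units for Rps29, a small subunit protein that binds zinc. A mean of at least 1000 units, called bright below, was found for 62 members, 28 of the large and 34 of the small subunit. They covered 34 genes. The floor was not reached by 89 members on any array, was reached by 7 on some arrays and by 4 on all arrays. No reference probe set was brighter than the brightest member, so the brightest members are set against probe sets that are mostly dimmer.

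Brightness went with the kind of probe set. Of the 30 members whose names end in plain _at, 5 were bright and 23 lay under 300 units. Of the 28 _a_at probe sets, which read several transcripts of a gene, 24 were bright, and of the 40 _x_at probe sets, whose probes can also match other sequences, 32 were bright. In 10 genes a bright probe set stood beside one under 300 units. The 14 genes without a bright probe set allow no such comparison. Signals of different probe sets are not compared here as levels of their genes.

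Single ECS and sham were compared to describe the response of mice without earlier stimulation. The signals of bright ribosomal protein probe sets were close to those of sham, with 60 of 62 (96.8%) within 1.2-fold of their reference. Relative to probe sets of similar brightness the median was 0.05 for the bright large subunit members, of which 22 of 28 were above 0, and 0.06 for the bright small subunit members, of which 27 of 34 were above 0. The sign of this difference belongs to the reference. In the deposited signals themselves 39 of the 62 bright members (62.9%) were below 0, against 77.3% of bright probe sets outside the family, with medians of −0.03 for the large and −0.0042 for the small subunit, and the reference was lower still at −0.09 and −0.07. Over the 44 large and 48 small subunit members with a value, bright or dim, the relative medians were 0.04 and 0.05. Among the 92, 10 were higher by at least 1.2-fold and 7 were lower, against 20.5% and 18.6% of all probe sets. As deposited, 3 were higher and 16 lower by that fold, against 8.74% and 45.3%. Among the 62 bright members 2 were higher relative to the reference and 0 lower, against 8.76% and 4.78% of the 1484 bright probe sets outside the family. Past 2-fold there were 0 members in either direction, against 2.32% of all probe sets higher and 0.914% lower. Of bright probe sets outside the family 1.08% were higher by that fold and 0% lower.

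11 ECS and 10 ECS were compared to describe the response to a further stimulus in mice with earlier ECS. These arrays are not shared with the comparison of single ECS and sham. The bright members again lay close together, with 60 of 62 within 1.2-fold of the reference, a relative median of 0.01 for the large subunit (15 of 28 above 0) and of 0.03 for the small subunit (23 of 34 above 0). Of the 95 members with a value, 5 were higher by at least 1.2-fold and 6 lower, against 18.9% and 16.7% of all probe sets. Past 2-fold there was 1 member, higher, and 0 lower, against 1.63% and 0.658% of all probe sets and 0.809% and 0% of bright probe sets outside the family. The member past 2-fold is a dim probe set of Rps27, described below. As deposited, 3 were at least 1.2-fold higher and 12 lower, against 11.6% and 28.4%. Of the bright members 0 were higher relative to the reference and 2 lower, against 8.09% and 4.25% of bright probe sets outside the family.

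Across the 62 bright members, the relative log2 ratios of both responses had a Pearson r of 0.39 and a Spearman rho of 0.44, and with 1 probe set for each of the 34 genes these were 0.45 and 0.50. Across 1484 bright probe sets outside the family they were 0.82 and 0.56. The relative log2 ratios of those reached 5.17 and 4.44 in the 2 responses, against 0.43 and 0.19 for bright members. The Pearson values thus cover unlike ranges. These correlations are across probe sets, which are not independent replicates, and both responses were corrected with references of the same brightness.

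10 ECS and sham were compared to describe the state after repeated ECS, with sham shared with the single ECS comparison and 10 ECS with the 11 ECS comparison. As deposited, 55 of the 62 bright members (88.7%) were lower than in sham, against 75.9% of bright probe sets outside the family, with a median log2 ratio of −0.08 for the large and −0.11 for the small subunit. Bright probe sets outside the family were lower as well, so that relative to them the medians were 0.0045 for the large subunit, with 15 of 28 above 0, and −0.03 for the small subunit, with 12 of 34 above 0. Among bright members 61 of 62 (98.4%) were within 1.2-fold of the reference. Of 95 members with a value, 8 were higher by at least 1.2-fold and 8 lower, against 17.7% and 17.5% of all probe sets. As deposited, 4 were higher and 15 lower, against 10.1% and 31.5%. Among bright members 1 was higher relative to the reference and 0 were lower, against 4.04% and 5.86% of bright probe sets outside the family. Past 2-fold there were 0 in either direction, against 1.08% and 0.963% of all probe sets. Of bright probe sets outside the family 0.135% were higher and 0.135% lower by that fold.

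11 ECS and single ECS, both taken 1 h after a stimulus, were compared to set mice with earlier ECS beside mice without. Bright members of both subunits were slightly lower after 11 ECS. The relative median was −0.03 for the large subunit, with 10 of 28 above 0, and −0.05 for the small subunit, with 5 of 34 above 0. The deposited medians, −0.07 and −0.08, had the same sign, and 53 of the 62 bright members (85.5%) were below 0, against 60.2% of bright probe sets outside the family. Of 93 members with a value, 3 were higher by at least 1.2-fold and 6 lower, against 16.7% and 18.9% of all probe sets. Past 2-fold were 1 higher and 1 lower, the dim probe sets of Rps27 and Rpl35, against 0.926% and 1.08% of all probe sets. Of bright probe sets outside the family 0.0674% were higher and 0.337% lower by that fold. Among bright members 0 were higher and 3 lower by 1.2-fold, against 3.71% and 7.35% of bright probe sets outside the family. The difference between both responses, which uses all 4 arrays, had a relative median of −0.03 for the bright members of either subunit. In it 7 of 91 members were at least 1.2-fold higher and 10 lower, against 19.8% and 20.4% of all probe sets.

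Ranked by array, sham was the highest of the 4 for 18 of 28 bright large subunit members and 19 of 34 bright small subunit members. Single ECS was the highest for 7 and 14. The lowest array was 10 ECS for 9 large and 17 small subunit members, and 11 ECS for 12 large and 16 small subunit members. Single ECS was the lowest for 5 large and 0 small subunit members, while it was the lowest for 30.8% of the 1484 bright probe sets outside the family, of which 23.9% had their lowest signal on 10 ECS and 39.0% on 11 ECS. Sham was the highest for 59.8% of them. All bright small subunit members but 1 thus had their lowest signal on an array of mice with repeated ECS.

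The bright members differed little among themselves. The interquartile range of the relative log2 ratio was 0.10 over bright members for single ECS over sham, 0.08 for 11 ECS over 10 ECS, 0.09 for 10 ECS over sham and 0.12 for 11 ECS over single ECS. For bright probe sets outside the family it was 0.18, 0.16, 0.19 and 0.18. The share within 1.2-fold of the reference was 95.2% to 98.4% for bright members and 86.5% to 90.1% for the others. These are descriptions over probe sets that often share genes and sequences. The bright probe sets outside the family were dimmer, with a median of 1777 units in sham, against 2678 for the large and 3317 for the small subunit members. The spreads were not matched for brightness, and whether they differ beyond it was not tested.

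The only error that these data hold is how far probe sets of 1 gene lie apart. Over 44 bright probe sets of 16 genes its pooled SD was 0.06 on the log2 scale for single ECS over sham, and 0.10, 0.09 and 0.11 for 11 ECS over 10 ECS, 10 ECS over sham and 11 ECS over single ECS. For bright probe sets of other genes it was 0.11, 0.12, 0.12 and 0.11. It covers probe sets and neither arrays nor mice. By relative log2 ratio, in single ECS over sham all bright probe sets of a gene were above 0 in 12 of the 16 genes and all were below 0 in 1, Rps7. In 11 ECS over single ECS all were below 0 in 8 genes (Rpl27, Rpl37a, Rps15, Rps24, Rps28, Rps29, Rps7 and Rps9) and in 0 genes were all above 0. In 10 ECS over sham, 3 genes had all probe sets above 0 and 4 genes, Rps7, Rps10, Rps24 and Rps29, all below. In 11 ECS over 10 ECS, 5 genes had all above 0 and 1, Rpl37a, all below. These signs were not counted for genes outside the family. Of the 62 bright members, 49 were above 0 in single ECS over sham and 47 below 0 in 11 ECS over single ECS. Probe sets of a gene can thus share a sign because most members do. Whether they agree beyond that was not tested.

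Among single genes, Rpl22l1 stood out from the bright members in the response to a single ECS, and its paralog Rpl22 is given beside it. Rpl22 is an RNA-binding protein of the large subunit, and Rpl22l1 is its paralog, which can take its place in the ribosome. The Rpl22l1 probe set read 2274 units in sham, 2831 after single ECS, 2019 after 10 ECS and 2129 after 11 ECS. Its highest signal was that of single ECS, 1.25-fold above sham. Its relative log2 ratio of 0.43 was the highest of the 62 bright members. It was larger than the 0.06 spread between bright probe sets of a gene, which covers neither arrays nor mice. Rpl22l1 had 1 member probe set. Of bright probe sets outside the family 8.76% were at least 1.2-fold higher in this comparison and 2.90% at least 1.5-fold. For 11 ECS over 10 ECS the relative log2 ratio of Rpl22l1 was 0.12.

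Both Rpl22 probe sets were lower after single ECS. One read 822 units in sham, 621 after single ECS, 549 after 10 ECS and 539 after 11 ECS. The other read 463, 313, 434 and 425 units in the same order. Their relative log2 ratios were −0.21 and −0.34 for single ECS over sham, and 0.05 and 0.11 for 11 ECS over 10 ECS, where the deposited signals themselves were slightly lower after 11 ECS. Both Rpl22 probe sets had a mean under 1000 units. Members of that brightness had a median size of the relative log2 ratio of 0.26 in single ECS over sham. The Rpl22 values were thus not unusual among them. The Rpl22 probe sets disagreed on the state after 10 ECS, at −0.44 and 0.04 over sham. In single ECS, then, the Rpl22l1 signal was higher and both Rpl22 signals were lower than in sham, and after 11 ECS none of these 3 differed from 10 ECS by as much.

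Rps27l, a paralog of the small subunit protein Rps27 and a known target gene of p53, was measured by 3 probe sets. The first read 502 units in sham, 380 after single ECS, 524 after 10 ECS and 440 after 11 ECS. The second read 415, 307, 452 and 280 units, and the third 590, 393, 585 and 473 units. As deposited, all 3 were lower 1 h after a stimulus than on the array without it. So were 78.1% of all probe sets in single ECS over sham and 66.5% in 11 ECS over 10 ECS. The relative log2 ratios were −0.17, −0.18 and −0.36 for single ECS over sham and −0.16, −0.58 and −0.23 for 11 ECS over 10 ECS. Members under 1000 units, as these are, had a median size of 0.26 and 0.19 in these comparisons. The values −0.17, −0.18 and −0.16 were thus not unusual among them, while −0.36, −0.58 and −0.23 were larger than the median size. For 10 ECS over sham the relative log2 ratios were 0.20, 0.28 and 0.11, although the third signal was slightly below sham as deposited.

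Rps27 itself had 1 member probe set, and it was dim. It read 64.0 units in sham, 54.9 after single ECS, 40.9 after 10 ECS and 117.9 after 11 ECS, so that 11 ECS was 2.88-fold above 10 ECS and 2.15-fold above single ECS. A probe set annotated to both Rps27 and Rps27rt, outside the members, read 2141, 1977, 1670 and 1796 units, with relative log2 ratios of 0.16 for 11 ECS over 10 ECS and −0.26 for 10 ECS over sham. The excess of 11 ECS in the dim probe set was not seen to that size in the brighter one.

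Among other paralogs, Rpl39l, known from testis, was under the floor on all arrays. Rpl3l, known from heart and skeletal muscle, read 20.2 units in sham and was under the floor on the other arrays, at least 1.68-fold lower. Rps4l, a homolog of Rps4x, was measured on all arrays and read 309 units in sham, 352 after single ECS, 369 after 10 ECS and 305 after 11 ECS, with relative log2 ratios of 0.43 for single ECS over sham and −0.14 for 11 ECS over 10 ECS. The bright Rps4x probe set read 3673, 3736, 3519 and 3573 units, all within 1.2-fold.

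In the small subunit, Rpsa, also known as the laminin receptor, was measured at 2809 units in sham, 3204 after single ECS, 2487 after 10 ECS and 2552 after 11 ECS. It was highest on the single ECS array, with a relative log2 ratio of 0.27, the highest of the bright small subunit members in that comparison, and 0.06 after 11 ECS over 10 ECS. A second Rpsa probe set was under the floor on all arrays.

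Rps10, whose human gene is one of those mutated in Diamond-Blackfan anaemia, had lower signals after 10 ECS than in sham in 4 bright probe sets. The brightest read 4442, 4470, 3771 and 4044 units in sham, single ECS, 10 ECS and 11 ECS. The relative log2 ratios of the 4 for 10 ECS over sham were −0.04, −0.06, −0.17 and −0.12. Another probe set, of lower signal, read 658, 692, 449 and 440 units, with −0.42. As deposited, these 5 were within 1.2-fold of sham after single ECS. Relative to similar brightness, the probe set of lower signal was 1.21-fold higher there. The dimmest, at 19.1 to 29.8 units, was higher after 10 ECS than in sham.

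Rps7, Rps24 and Rps19 belong to the same group of anaemia genes. Rps7 read 4690, 4207, 4046 and 4065 units in one probe set and 3950, 3633, 3517 and 3374 in the other, highest in sham in both. One Rps24 probe set read 2885 units in sham, 2603 after single ECS, 2378 after 10 ECS and 1863 after 11 ECS, and its relative log2 ratio of −0.43 for 11 ECS over single ECS was the lowest of the bright members. The brightest Rps24 probe set read 5054, 4729, 4691 and 4549 units, with −0.04 in that comparison, so the probe sets of this gene disagreed in size. Rps19 read 1985, 1930, 1821 and 1745 units.

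Rps29 held the brightest probe set of the family, at 9766 units in sham, 9766 after single ECS, 8985 after 10 ECS and 8209 after 11 ECS. Sham and single ECS were alike there and 11 ECS was lowest, with a relative log2 ratio of −0.23 for 11 ECS over single ECS. The other Rps29 probe sets had −0.25 and −0.05. Rps3, which lies where the mRNA enters the ribosome, had one of the flattest courses, at 2000, 2005, 2011 and 2038 units. Rps6, the substrate of the S6 kinases and widely used as a readout of mTOR activity through its phosphorylation, read 255, 249, 243 and 258 units in its better measured member probe set.

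In the large subunit, the stalk proteins Rplp0 and Rplp2, which bind elongation factors, stayed within 1.2-fold of sham on all arrays. Rplp0 read 2403 units in sham, 2462 after single ECS, 2282 after 10 ECS and 2288 after 11 ECS. Rplp2 read 5353, 5195, 4771 and 4712 units, lower on both arrays of mice with repeated ECS. Rpl38, known for its part in the translation of Hox mRNAs and the brightest large subunit member, read 7614, 7685, 7064 and 7364 units. Rpl11, which can bind the p53 regulator Mdm2, read 3016, 2840, 3006 and 2885 units, slightly lower on both arrays taken 1 h after a stimulus. Probe sets of similar brightness were lower there as well. The relative log2 ratios of Rpl11 were −0.01 for single ECS over sham and −0.03 for 11 ECS over 10 ECS.

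Rpl41, a very short basic protein, showed how far probe sets can part. One read 2627 units in sham, 2491 after single ECS, 3427 after 10 ECS and 2676 after 11 ECS, 1.30-fold above sham on the 10 ECS array. Its relative log2 ratio of 0.47 was the highest of the bright members for 10 ECS over sham. The brightest Rpl41 probe set read 4829, 4966, 4640 and 4838 units, with a relative log2 ratio of 0.00 in that comparison. Rpl13a, a protein that can leave the ribosome to silence certain mRNAs, had relative log2 ratios of −0.12, 0.11 and −0.03 in its 3 bright probe sets for 10 ECS over sham. Rpl37, with 1 member probe set at 758, 547, 609 and 456 units, was lower in both responses, at −0.26 and −0.35. The brightest probe set annotated to both Rpl37 and Rpl37rt, outside the members, read 5869, 5726, 5485 and 5487 units, with 0.01 in both responses, so the lower values of the member were not seen there.

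The dim members strayed more. Among the 38 members under 1000 units, the median size of the relative log2 ratio was 0.26 for single ECS over sham, 0.19 for 11 ECS over 10 ECS, 0.23 for 10 ECS over sham and 0.18 for 11 ECS over single ECS, against 0.07, 0.05, 0.06 and 0.06 for bright members. They held 8 of the 10 members that were at least 1.2-fold higher in single ECS over sham, and all 7 that were lower. A dim Rpl35 probe set read 20.7, 25.5, 24.9 and under the floor, so that 11 ECS was at least 2.08-fold below 10 ECS, while the 5 bright Rpl35 probe sets had relative log2 ratios between −0.03 and 0.05 in that comparison. A dim Rps20 probe set read 47.4, 32.5, 32.6 and 35.3 units, lower than sham on the other arrays, while the 2 bright Rps20 probe sets had 0.03 and 0.07 for single ECS over sham.

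The 74 bright ribosomal protein probe sets with several symbols can be set beside the members, since the rule did not use them. Their relative medians were 0.04 for single ECS over sham (56 of 74 above 0), 0.03 for 11 ECS over 10 ECS (52 above 0), −0.06 for 10 ECS over sham (15 above 0) and −0.05 for 11 ECS over single ECS (21 above 0). For the difference between both responses their relative median was 0.0032 (39 above 0), unlike that of the bright members at −0.03 (19 of 62 above 0). These probe sets share the 4 arrays with the members and partly their genes, and their probes can match pseudogenes. Of 4 bright probe sets annotated to Rps6 and a pseudogene, 3 were lowest after 10 ECS, the brightest of them at 5646 units in sham, 5595 after single ECS, 5243 after 10 ECS and 5556 after 11 ECS. The other one read 5492, 5003, 5020 and 5226 units.

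Other genes of protein synthesis gave the following values in the same comparisons. Proteins of the mitochondrial ribosome, a separate particle, had relative medians of −0.04, −0.04 and 0.03 over 74 genes for single ECS over sham, 11 ECS over 10 ECS and 10 ECS over sham, and of 0.05 for 11 ECS over single ECS. The middle 50% of them spanned −0.19 to 0.10 in the first of these, against −0.01 to 0.11 for the large and −0.04 to 0.12 for the small subunit members with a value. In single ECS over sham 1 was at least 1.2-fold higher and 12 were lower (1.35% and 16.2%, against 20.5% and 18.6% of all probe sets), such as Mrpl22 at 456 units in sham and 261 after single ECS and Mrps31 at 235 and 135 units. Ribosome assembly genes had 0.06, 0.10 and −0.00 over 73 genes, with 15 higher by at least 1.2-fold and 9 lower in the first of these (20.5% and 12.3% of the list, against 20.5% and 18.6% of all probe sets). There were 18 and 3 in the second (24.7% and 4.11%, against 18.9% and 16.7%), and 5 and 10 in the third (6.85% and 13.7%, against 17.7% and 17.5%). Their middle 50% spanned −0.15 to 0.25 in single ECS over sham. Fibrillarin (Fbl), which methylates ribosomal RNA, read 357 units in sham, 539 after single ECS, 335 after 10 ECS and 348 after 11 ECS. Initiation factors had 0.03, 0.04 and 0.04 over 34 genes, among them Eif4a1, an RNA helicase, at 2270, 2844, 2079 and 2514 units.

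Elongation factors had 0.06, 0.06 and −0.04 over 8 genes. Other ribosome-linked genes are those whose products bind the ribosome or whose mRNAs are controlled in the same way, and 6 of 10 listed were on the array. Relative to similar brightness, 6 of these 6 were above 0 in single ECS over sham, against 50.2% of all probe sets. In 11 ECS over 10 ECS 5 were above 0, in 10 ECS over sham 3 and in 11 ECS over single ECS 2. Tpt1 read 6984, 8027, 7944 and 8469 units, and Pabpc1, which binds poly(A) tails, 3552, 3934, 3483 and 3813 units. Tpt1 and Pabpc1 were both above sham after single ECS.

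The tissue was checked against marker genes. The summed signal of 5 granule cell markers was 6381 units in sham, 5432 after single ECS, 3662 after 10 ECS and 3269 after 11 ECS. Calb1 read 3234, 2747, 1507 and 1304 units, Neurod1 1086, 1301, 947 and 1238, and Prox1 68.6, 69.8, 57.1 and 62.7. The study reports that repeated ECS lowered Calb1, Tdo2 and Dsp, all in this sum, while NeuN and PSD-95 protein were not affected. The sum is therefore no count of granule cells. The astrocyte sum (6 genes) lay between 5825 and 6452 units, although its members did not move alike. Gfap read 49.3, 45.6, 114.1 and 135.0 units and Aqp4 1077, 991, 1401 and 1373, higher on both arrays of mice with repeated ECS, while Slc1a3 read 1841, 1603, 1355 and 1368. The oligodendrocyte sum (4 genes) lay between 5265 and 6215, the microglia sum (5 genes) between 1911 and 2045 and the endothelial sum (4 genes) between 322 and 388. These sums also hide differences. All 4 oligodendrocyte markers were lower after single ECS than in sham, with Mobp at 921.9 units in sham and 602.7 after single ECS. Cx3cr1 read 168.4, 171.5, 124.9 and 113.5 units, while C1qa read 297.0, 314.8, 319.3 and 351.6. Kdr read 42.6, 27.7, 73.1 and 54.8 units, while Flt1 read 131.2, 111.0, 107.1 and 84.7. Choroid plexus markers (3 genes) summed to 156, 265, 147 and 116 units. Of these Ttr was higher after single ECS (67.2 units in sham and 215.9 after single ECS), while Kl (74.3 and 38.4) and Folr1 (14.7 and 10.9, the latter under the floor) were lower, and both red blood cell markers were under the floor on all arrays. The 3′ to 5′ signal ratio, a measure of RNA integrity, was 0.963 to 1.06 for Gapdh and 1.91 to 1.95 for Actb. The part of these in the ribosomal protein values was not tested.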

How the data were processed

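RNA of the DG was amplified from 100 ng with a 3′ in vitro transcription kit and hybridised to Affymetrix Mouse Genome 430A 2.0 arrays. The authors deposited an intensity for each probe set on each array, computed with Microarray Suite 5.0 (MAS5) and not log-transformed. How arrays were scaled to each other was not given in the sources used here. Precision is limited by the number of arrays, 4, with 1 per group.

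Groups came from the sample titles. Of 22626 probe sets without 64 controls, 20380 had a single symbol, 691 several and 1555 none in the platform annotation. Signals under 12 units were set to this floor. A ratio with 1 array at the floor is a bound, and with both there is no value. Log2 ratios, medians, counts past 1.2, 1.5 and 2-fold, and relative log2 ratios (minus the median of the 200 nearest probe sets outside the family) were computed with Python 3.11.15, numpy 2.4.6 and pandas 2.3.3. The relative log2 ratios were also run on simulated data. The simulated shifts were larger than the subunit medians given here, so that run cannot show that medians of this size are recovered. Named members were the highest and lowest ratios, the brightest and dimmest, those past 2-fold or at the floor, those whose probe sets disagreed, and a fixed set of symbols. Genes outside this rule, and the genes named from related lists and markers, were chosen after their values were seen. The members, lists and rules were chosen with earlier results of these data known. Alternatives were other references, floors, filters and choices of probe set.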

Additional observations from a re-analysis of the deposited data

Results flagged for a closer look

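Rps20 and Rps4l each had a probe set whose responses to a single ECS and to the 11th ECS ran in opposite directions. One dim Rps20 probe set, at 47.4 units in sham, had a relative log2 ratio of −0.30 for single ECS over sham and 0.31 for 11 ECS over 10 ECS. As deposited, the second value was 0.11. Relative log2 ratios of another dim Rps20 probe set, at 41.1 units in sham, were −0.55 and −0.05, so both were below 0. The Rps4l probe set had relative log2 ratios of 0.43 and −0.14. With 1 array per group the difference was not tested, and the bright Rps20 probe sets showed no such opposition.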

How the results depend on the processing

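With 1 array per group, no array could be left out and no test exists. No paired analysis was possible because each group has a single array and the labels give no shared replicate numbers. A subunit median was counted as moved only if it shifted by more than the spread between bright probe sets of a gene (0.06 to 0.12). Of 150 alternative values 146 stayed within that, although 14 changed sign. The medians themselves lay between −0.04 and 0.05, so this count cannot show that they held. The median for single ECS over sham was −0.050 for the large and −0.022 for the small subunit in ratios as deposited, an alternative added after seeing the data, against 0.18 and 0.21 with all probe sets as the reference. The direction of the first response therefore rests on the reference. For 11 ECS over single ECS the medians stayed below 0 in all alternatives run. Of 45 values of 9 probe sets of Rpl22, Rpl22l1, Rps10, Rps27l and Rpsa, 6 crossed 0 in some setting, all of them small.

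Counts past 1.2-fold moved by over 1.5 times in 63 of 150 values, as higher and lower counts for single ECS over sham, 11 ECS over 10 ECS, 10 ECS over sham, 11 ECS over single ECS and the difference of responses in turn. The reference of all probe sets gave 18 higher for the first. Without a floor, the first had 12 lower, the second 8 higher, the fourth 10 higher and the difference 13 higher. With a floor of 50 units, the first had 3 lower, the second 1 higher, the third 3 higher and 3 lower and the difference 4 higher. A minimum of 48 units gave 3 lower, 1 higher, 3 higher and 4 lower, and 4 higher. With the brightest probe set per gene they were 6 and 3, 1 and 1, 1 and 3, 1 and 2, and 2 and 3. With the median per gene they were 5 and 3, 1 and 1, 2 and 2, 1 and 2, and 3 and 3. Without _x_at and _s_at probe sets the second had 2 lower and the third 5 higher, and without probe sets at the floor the third had 5 higher. As deposited they were 3 and 16, 3 and 12, and 4 and 15, with 3 lower for the difference. Among members of at least 1000 units, as an added alternative, they were 2 and 0, 0 and 2, 1 and 0, 0 and 3, and 0 and 4. With the probe sets of several symbols they were 19 higher, 13 higher, 17 and 14, 8 and 15, and 12 and 16. Most of these settings also change the number of probe sets counted.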
